A study of Arabidopsis thaliana with 2 samples.

Results

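The core circadian clock genes of *Arabidopsis thaliana* were examined for occupancy by MBD9, a methyl-CpG-binding domain protein that associates with the SWR1 chromatin remodeling complex. The 10 genes were taken by locus: *CCA1* (AT2G46830), *LHY* (AT1G01060), *PRR9* (AT2G46790), *PRR7* (AT5G02810), *PRR5* (AT5G24470), *TOC1* (AT5G61380), *GI* (AT1G22770), *ELF3* (AT2G25930), *ELF4* (AT2G40080) and *LUX* (AT3G46640, annotated as *PCL1*). They are 10 of 27444 protein-coding genes on the nuclear chromosomes. MBD9 ChIP-seq used an anti-FLAG antibody on a transgenic line that carries MBD9-3xFLAG, driven by its own *MBD9* promoter, in the *mbd9-3* mutant. Untagged wild-type plants were the control. Both were of the Col-0 ecotype, 13 days after germination, grown in long days, and many plants were combined in a sample, described in the labels both as seedlings and as shoots. The tagged protein came from 1 transgenic line. With 1 library in each group, the values could not be checked between replicates. The hour of harvest is not given in the sources used here, which matters for genes whose activity changes over the day.

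The plant clock is a network of repressors that follow each other through the day. *CCA1* and *LHY* encode related MYB transcription factors that peak at dawn and repress evening genes. The pseudo-response regulators PRR9, PRR7 and PRR5 follow from morning to afternoon and repress *CCA1* and *LHY*, as does TOC1, a member of the same family that peaks in the evening. GI stabilizes the F-box protein ZTL, which targets TOC1 for degradation. ELF3, ELF4 and LUX form the evening complex, in which LUX binds DNA. SWR1 places the histone variant H2A.Z, which in plants lies mainly next to transcription start sites (TSSs) and in the bodies of responsive genes. *CCA1*, *LHY*, *PRR9*, *PRR7* and *PRR5* are called morning-phased here, and *TOC1*, *GI*, *ELF3*, *ELF4* and *LUX* evening-phased. These phases are background knowledge and were not measured.

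The deposited data are the summits of peaks called in the MBD9-3xFLAG library over the wild-type library, meaning the base of strongest enrichment, scored by the -log10 q value. The list held 13993 summits in 10348 peaks. Scores ranged from 2.0 to 197 with a median of 10.1, and the lowest value lies at the q value cutoff of 0.01, so weaker signal is not in the list. The read number of the libraries is unknown from this list.

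MBD9 summits lay upstream of 9 of the 10 clock genes, within 1 kb of the TSS. The exception was *ELF3*. Over all protein-coding genes the share was 17.3%. In the morning-phased group all 5 genes had an upstream summit, and in the evening-phased group 4 of 5 had one. No summit lay inside any of the 10 genes, where 13.6% of all protein-coding genes had one. None lay within 500 bp 3' of them either, against 7.76% of all protein-coding genes. With so few genes, counts of 0 out of 10 lie near these background shares, whereas the upstream count does not. Taking the 3 windows together, 9 of 10 clock genes had a summit, compared with 30.1% of protein-coding genes. An upstream summit with neither of the other windows occupied was found for 65.6% of the protein-coding genes with an upstream summit, and for all 9 clock genes that had one. No test was run on these counts, since the genes come from 1 list and are not replicates. The genes were also chosen with earlier results of these data known, so their contrast with the background shares is not independent support.

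**Figure D1:**
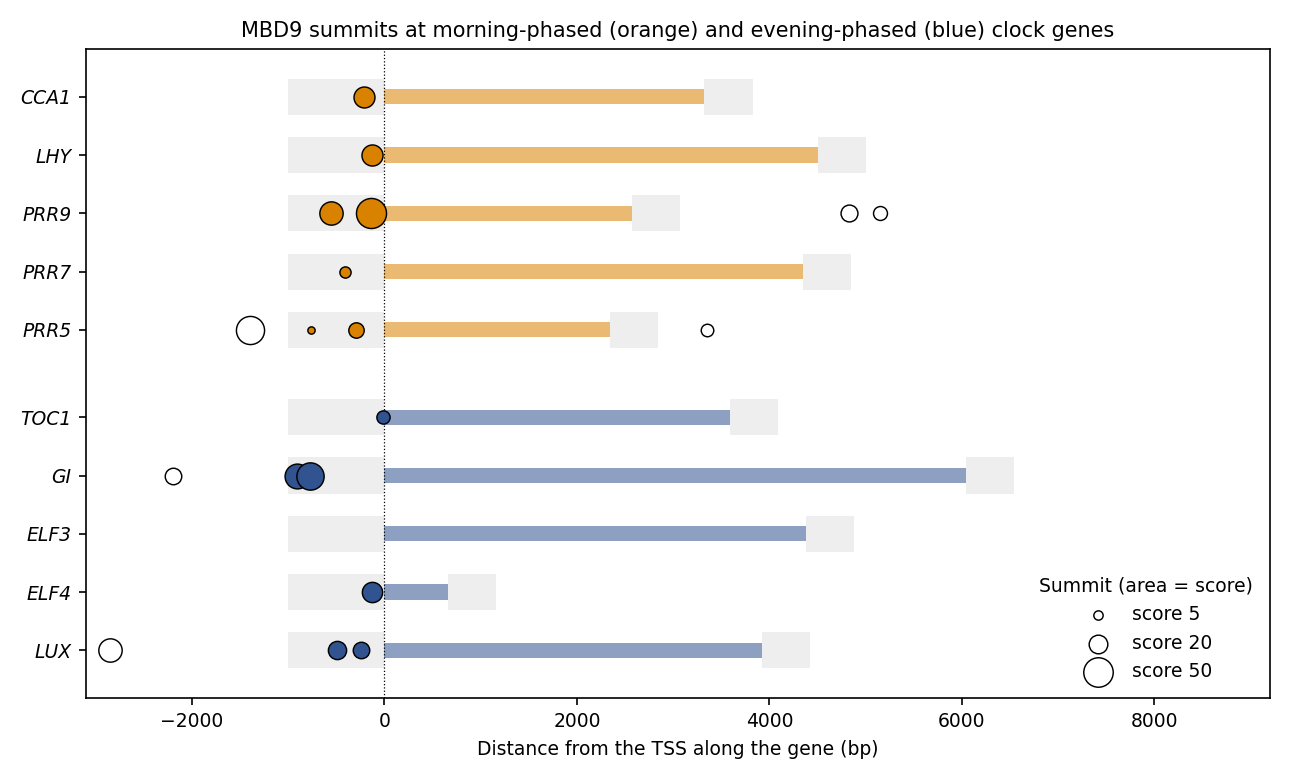
MBD9 summits (circles, area proportional to score) at the 10 clock genes, by distance from the TSS in bp. Thin bars are the genes to scale, orange where morning-phased and blue where evening-phased, grey blocks the 1 kb upstream and the 500 bp 3' of each gene, filled circles summits inside these windows and open circles other nearby summits; all 13 filled circles lie upstream, and the row of *ELF3* has no circle.

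The sequences below show what lies under the summits of the morning-phased genes *CCA1*, *LHY*, *PRR9* and *PRR5*. Each covers 50 bases on both sides of the highest-scoring upstream summit, which is base 51, and reads 5′ to 3′ on the strand of the gene (RefSeq TAIR10.1). Capitals mark matches to short motifs known from clock and light-regulated promoters. These are the G-box CACGTG, the ACGT core ACGTG that is also contained in the G-box, the evening element AAATATCT, the LUX-binding sites GATACG and GATTCG, and the TCP sites GGGCCCAC, GGTCCCAC and GTGGACCC, each searched on both strands.
CCA1, chr2:19245323-19245423, plus strand: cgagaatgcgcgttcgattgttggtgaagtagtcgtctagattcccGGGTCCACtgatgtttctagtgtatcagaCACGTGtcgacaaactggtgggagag
LHY, chr1:37946-38046, minus strand: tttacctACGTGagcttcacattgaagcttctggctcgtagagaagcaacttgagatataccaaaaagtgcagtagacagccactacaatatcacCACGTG
PRR9, chr2:19232413-19232513, plus strand: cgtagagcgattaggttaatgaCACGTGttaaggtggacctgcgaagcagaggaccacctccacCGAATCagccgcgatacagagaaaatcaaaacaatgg
PRR5, chr5:8358788-8358888, minus strand: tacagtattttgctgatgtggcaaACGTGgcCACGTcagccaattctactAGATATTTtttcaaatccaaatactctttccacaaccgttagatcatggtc

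For the evening-phased genes, the same view was taken for *TOC1*, *GI* and *LUX*. That of *TOC1* ends at the last base before the TSS. That of *LUX* is centred on its lower-scoring summit, between *LUX* and its divergent neighbour. It covers 60 bases on both sides, so that it reaches the nearest G-box, 55 bp away. Neither *LUX* summit had a G-box within 50 bp, and the higher-scoring one is not shown. In *GI* the capitals also mark GGCCCAT, the reverse complement of the element ATGGGCC.
TOC1, chr5:24674899-24674962, plus strand: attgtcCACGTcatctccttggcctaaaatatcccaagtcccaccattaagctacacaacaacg
GI, chr1:8060930-8061030, plus strand: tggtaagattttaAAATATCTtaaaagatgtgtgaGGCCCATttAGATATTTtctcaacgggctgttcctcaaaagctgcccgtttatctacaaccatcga
LUX, chr3:17182736-17182856, plus strand: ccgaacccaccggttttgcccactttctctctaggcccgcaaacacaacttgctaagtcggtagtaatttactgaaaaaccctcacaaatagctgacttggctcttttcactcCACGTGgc

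*PRR9* carried the highest score of the 10 genes. It lies on chromosome 2 (19232607 to 19235179, plus strand) and had 2 upstream summits in the same peak. They scored 52.0 at -144 bp and 31.3 at -555 bp, 411 bp apart. The higher one ranked 781 among all 13993 summits. The nearest summits past the end of the gene lay 2251 bp away, outside the windows.

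The 2 MYB genes had nearly the same score. *CCA1* (chromosome 2, 19245591 to 19248915, plus strand) had 1 summit at -218 bp with a score of 25.3. This summit lay 232 bp past the 3' end of the tandem neighbour *PSI-P*. *LHY* (chromosome 1, 33365 to 37871, minus strand) had 1 summit at -125 bp with a score of 25.6, 448 bp past the 3' end of *UMAMIT28*. Both genes have several annotated starts. Counted from its most downstream start, the *CCA1* summit lay at -1308 bp, beyond the 1 kb window, and the *LHY* summit at -766 bp. *CCA1* and *PRR9* lie close to each other, with TSSs 12984 bp apart, and their summits belong to different peaks.

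*PRR5* and *PRR7* had the lowest scores of the morning-phased group. *PRR5* (chromosome 5, 8356204 to 8358546, minus strand) had summits at -292 bp with a score of 13.6 and at -768 bp with a score of 3.05. Both were part of a peak with 3 summits. The third, outside the window at -1401 bp, had by far the highest score of the peak, 45.6. It lay 111 bp inside the non-coding gene AT5G03755, which is transcribed away from *PRR5*. The summits at -292 and -768 bp also fell into the upstream window of AT5G03755, 998 and 522 bp from its start. *PRR7* (chromosome 5, 637681 to 642030, minus strand) had 1 summit at -414 bp, with a score of 7.22.

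The *PRR7* summit did not lie in intergenic DNA. It fell inside AT5G02815, a serine tRNA gene of 82 bp on the same strand (chromosome 5, 642400 to 642481), and 110 bp upstream of *RHL2*, which encodes a DNA topoisomerase VI subunit and is divergent from *PRR7*. Of the 625 annotated nuclear tRNA genes, 166 (26.6%) had a summit inside. Which of the 3 genes the signal belongs to cannot be told apart from a summit position. The sequence around it is given with the bases of the tRNA gene in capitals.
PRR7, chr5:642394-642494, minus strand: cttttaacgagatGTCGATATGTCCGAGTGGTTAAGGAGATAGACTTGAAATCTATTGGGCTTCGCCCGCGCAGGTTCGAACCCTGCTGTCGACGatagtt

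Among the evening-phased genes, *GI* had the highest scores. *GI* (chromosome 1, 8061751 to 8067790, plus strand) had 2 summits at -771 bp and -909 bp, with scores of 42.9 and 35.4, only 138 bp apart. They lay farther from the TSS than the highest summit of any other clock gene. A weaker summit, with a score of 15.7, lay outside the window at -2203 bp. *TOC1* (chromosome 5, 24674963 to 24678550, plus strand) showed the opposite arrangement, with 1 summit of score 10.1 at -14 bp, the shortest distance among the 9 genes with a summit.

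The evening complex was unevenly occupied. *ELF4* (chromosome 2, 16734294 to 16734953, minus strand), the shortest of the 10 genes, had 1 summit at -126 bp with a score of 23.7. This summit also lay 484 bp upstream of the non-coding gene AT2G09110, so that it fell into the upstream window of both. *LUX* (chromosome 3, 17183042 to 17186959, plus strand) had 2 summits, at -492 bp with a score of 19.1 and at -246 bp with a score of 15.6. *LUX* shares its upstream region with the divergent gene AT3G46630, which starts 482 bp from the *LUX* TSS. The weaker *LUX* summit lay nearly midway, 236 bp upstream of AT3G46630, and the stronger one lay 10 bp inside that gene. *ELF3* (chromosome 2, 11058944 to 11063324, plus strand) had no summit in any window.

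Called summits were absent over a long stretch around *ELF3*. The nearest summit lay 16393 bp upstream of its TSS with a score of 20.3, and the next one past the gene lay 50822 bp from its end with a score of 6.11. Of all protein-coding genes, 86.8% had a summit nearer to their TSS, and the median distance was 4353.5 bp. The stretch without summits (chromosome 2, 11042551 to 11114146) measured 71595 bp and held 18 protein-coding genes, *ELF3* included. It ranked 146 in length among the 13988 gaps between neighbouring summits, whose median was 1918.5 bp. In the 1 kb upstream of *ELF3*, all 951 of the 50-base words occur once in the genome. The rest of the stretch was not examined in this way, and a cause of the missing summits was not tested. In the same window, the share of words that occur once was lowest at *PRR7* (96.5%) and *LHY* (98.1%) and 100% at the other 7 clock genes.

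Scores were then set beside those of all genes with an upstream summit. Taking the highest upstream summit per gene, the median was 23.7 for the 9 clock genes and 12.6 for the 4752 protein-coding genes (quartiles 6.62 and 25.4). *PRR9* was higher than 92.9% of these genes, *GI* than 89.35%, *LHY* than 75.2%, *CCA1* than 74.8%, *ELF4* than 73.1% and *LUX* than 66.0%. *PRR5* (53.2%) stood near the middle, and *TOC1* (41.4%) and *PRR7* (28.5%) stood below it. Thus 7 of the 9 were above the median and none was below the lower quartile. With a score of at least 10 required, 8 clock genes had an upstream summit, with *PRR7* lost, compared with 10.2% of protein-coding genes. More than 1 upstream summit was found at 4 of the 9 clock genes (*PRR9*, *PRR5*, *GI* and *LUX*) and at 19.0% of the protein-coding genes with an upstream summit.

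Morning-phased and evening-phased genes overlapped in the scores of their summits and in their distances from the TSS. The highest upstream scores ran from 7.22 to 52.0 with a median of 25.3 in the 5 morning-phased genes, and from 10.1 to 42.9 with a median of 21.4 in the 4 evening-phased genes with a summit. Their distances from the TSS ran from 125 to 414 bp (median 218 bp) in the morning-phased genes and from 14 to 771 bp (median 309 bp) in the evening-phased genes. The morning-phased group held 7 upstream summits and the evening-phased group 6. The count of genes with an upstream summit differed by 1 gene, and this difference changed sign when *PRR5*, which peaks in the afternoon, was counted as evening-phased. No test was made between groups of 5 genes from 1 list.

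**Figure D2:**
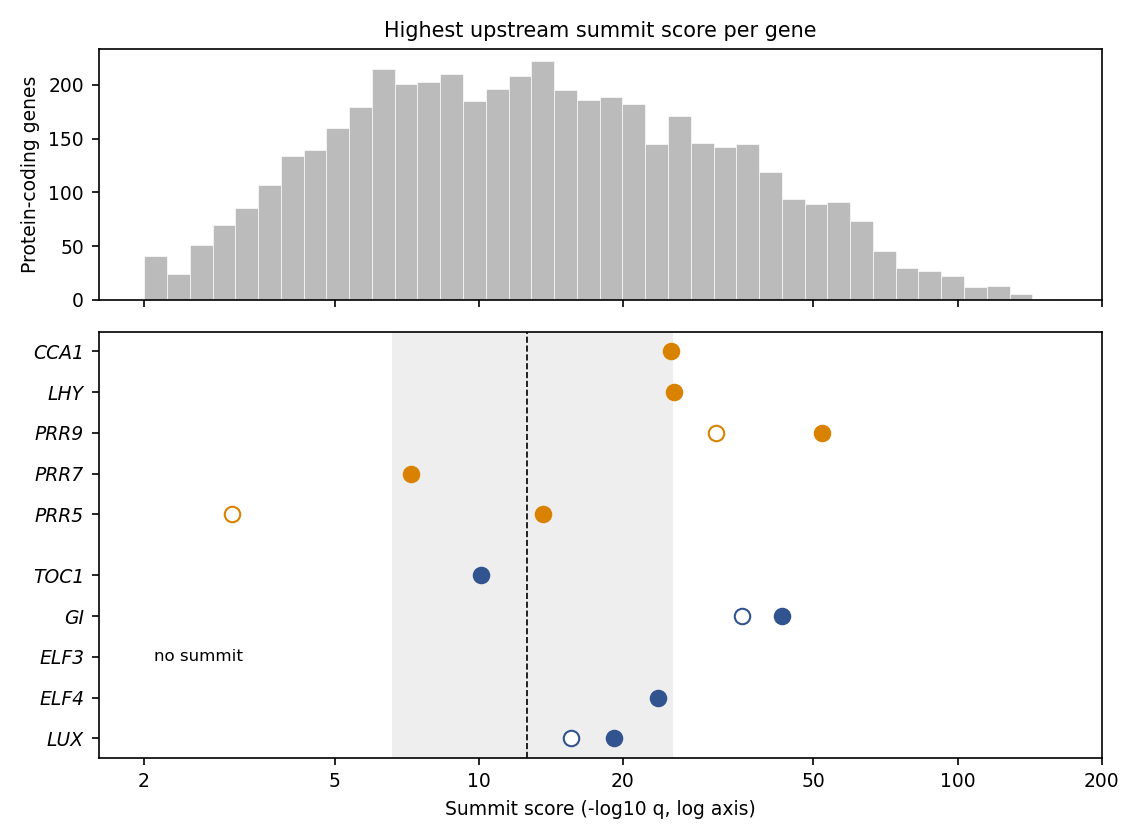
Upper panel, number of protein-coding genes by the score of their highest upstream summit (n = 4752). Lower panel, scores of the upstream summits of each clock gene on the same log axis, with the highest summit filled, other summits open, the median of all occupied genes as a dashed line and their quartiles as a grey band; morning-phased genes (orange) and evening-phased genes (blue) cover overlapping ranges, and *PRR9* at 52.0 and *GI* at 42.9 lie highest.

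The upstream regions were also searched for motifs, without regard to summits. In the 1 kb upstream, the G-box, which bHLH and bZIP transcription factors of light signalling bind, was found in 4 of 5 morning-phased genes (all except *PRR5*) and in 1 of 5 evening-phased genes (*LUX*). It occurs in 14.8% of all protein-coding upstream regions of the same length. The evening element, to which CCA1, LHY and the REVEILLE proteins bind, was found in 1 of 5 morning-phased genes (*PRR5*) and in 4 of 5 evening-phased genes (*TOC1*, *GI*, *ELF4* and *LUX*), compared with 15.3% of all upstream regions. *ELF3* had neither. The CCA1-binding site AAAAATCT was found at *LHY*, *PRR9* and *PRR5* (21.1% of all upstream regions), and a LUX-binding site at 3 morning-phased and all 5 evening-phased genes (39.8% of all upstream regions).

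Several of these matches lay close to a summit. The evening element was 3 bp from the higher upstream summit of *PRR5* and 2 bp from the higher summit of *GI*, which had another copy 33 bp away, measured from the middle of the match. Among all 5099 summits upstream of protein-coding genes, 2.0% had an evening element within 50 bp. A G-box lay 27 bp from the summit of *CCA1*, 47 bp from that of *LHY* and 25 bp from the higher one of *PRR9*. That made 3 of the 13 clock gene summits with a G-box within 50 bp, and 11.0% of all upstream summits had one. The shorter ACGT core was within 50 bp of 7 of the 13, 1 summit each at *CCA1*, *LHY*, *PRR9*, *PRR5*, *TOC1*, *GI* and *ELF4*, compared with 25.2% of all upstream summits. In windows of the same width tiled over the upstream regions of all protein-coding genes, the shares were 1.64% for the evening element, 1.65% for the G-box and 7.97% for the ACGT core. The window width mattered for these counts. Within 25 bp, the G-box was at 0 of the 13 summits and at 6.22% of all upstream summits, and the ACGT core at 2 of the 13 and at 14.7%; the larger share of the ACGT core at the clock genes was seen only in the wider windows. The evening element remained at the *PRR5* and *GI* summits within 25 bp, against 0.843% of all upstream summits.

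Other matches lay farther away. The G-boxes of *PRR7* and *LUX* lay 215 and 55 bp from the nearest summit, and the evening elements of *TOC1*, *ELF4* and *LUX* lay between 87 and 405 bp away. Of 13 evening element matches in the 10 upstream regions, 3 were within 50 bp of a summit, counting that of *GI* at 33 bp, and of 6 G-box matches 3 were. At *CCA1* the summit coincided with a TCP site, GGGTCCAC in the sequence printed above and the reverse complement of GTGGACCC, and a further TCP match lay 71 bp away. CHE, a TCP transcription factor, is known to bind the *CCA1* promoter, but whether it binds at either of these matches was not tested. TCP sites were within 50 bp of 1.90% of all upstream summits and of no other clock gene summit. A LUX-binding site was within 50 bp of 2 of the 13 summits, at *PRR9* (16 bp from the higher summit) and at *ELF4*, and of 6.73% of all upstream summits. The element ATGGGCC was within 50 bp of 1 summit, that of *GI*, and of 2.45% of all upstream summits. The lower-scoring summits of *PRR9* and *PRR5*, at -555 and -768 bp, had no G-box, ACGT core, evening element or TCP site within 50 bp. Nor did the *PRR7* summit or either *LUX* summit, the higher-scoring one included. For the remaining words, a CONSTANS-type element, CCACA, was within 50 bp of 4 of the 13 summits and of 21.0% of all upstream summits. The HUD element CACATG was at none of the 13 (8.85% of all upstream summits), and neither was AAAAATCT (1.63%). The repeat GAGAGA was at 1 *LUX* summit (10.6%). A match is a run of letters and not a measured site, and the motifs were chosen with earlier results of these data known.

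**Figure D3:**
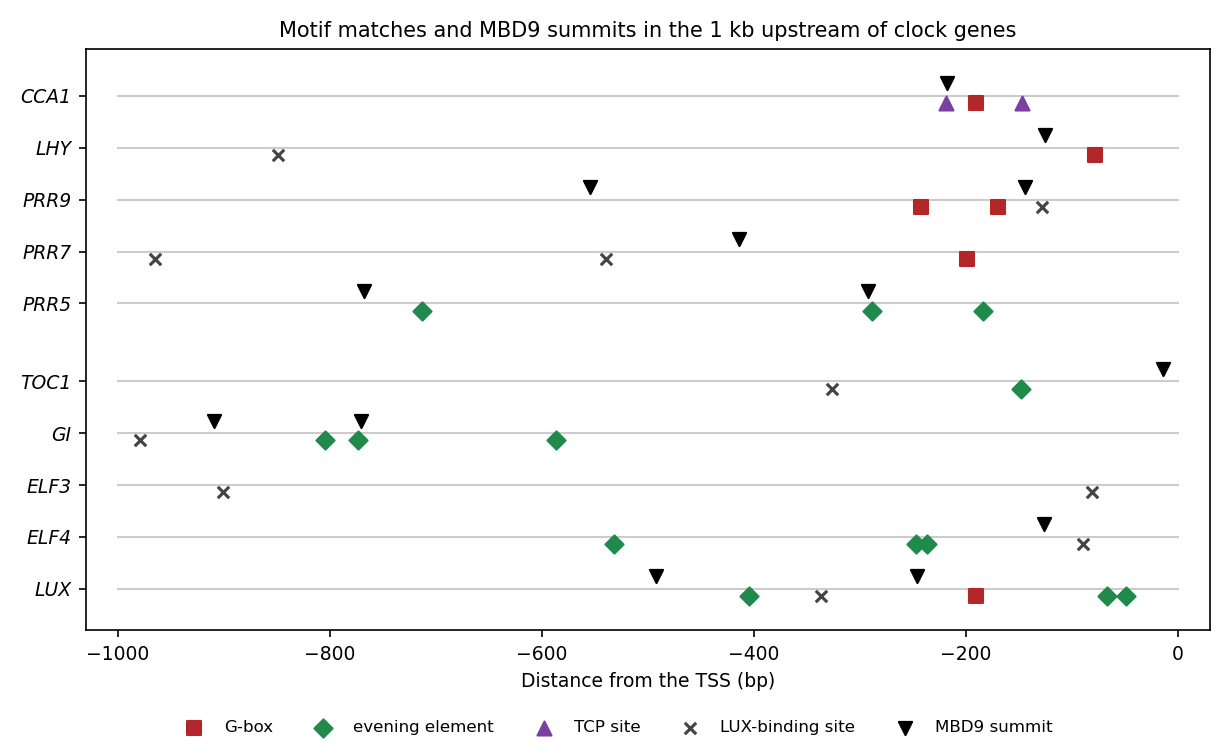
Matches to the G-box, evening element, TCP site and LUX-binding site (coloured symbols and crosses) and MBD9 summits (black triangles) in the 1 kb upstream of each clock gene, by distance from the TSS in bp. G-boxes appear in 4 of the 5 upper rows, which are the morning-phased genes, and evening elements in 4 of the 5 lower rows, which are the evening-phased genes; summits stand beside an evening element at *PRR5* and *GI*.

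Base composition at the summits varied among the genes. GC content within 50 bp averaged 40.7% ± 7.83 (SD over 13 summits) at the clock genes and 37.4% ± 7.62 at all 5099 upstream summits. It was highest at *CCA1* (50.5%), the higher summit of *PRR9* (49.5%) and *PRR7* (48.5%), where the window holds the tRNA gene. It was lowest at the lower-scoring summits of *PRR5* (23.8%) and *PRR9* (27.7%). The paired summits of *PRR9*, *PRR5*, *GI* and *LUX* each belong to 1 peak, so the 13 values are not independent.

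Genes that work with the core clock, also chosen with earlier results of these data known, were examined in the same windows. The list held 30 genes, and 14 of them (46.7%) had a summit within 1 kb upstream, beside the 17.3% of all protein-coding genes given above. Among the REVEILLE genes, MYB factors related to *CCA1* that include activators of evening genes, 4 of 5 had one. Without regard to the annotated symbol, which is missing for *RVE3*, *RVE5* and *RVE6*, it was 5 of 8, with *RVE6* added. *RVE7* scored 63.6 at 400 bp upstream, above every core clock gene, *RVE2* 46.0 at 163 bp, *RVE1* 34.7 at 417 bp and *RVE8* 12.5 at 564 bp. *RVE4*, whose TSS lies 6618 bp from that of *PRR7*, had none. Of the LNK coactivators, which partner with REVEILLE proteins, *LNK3* scored 45.1 at 6 bp and *LNK2* 41.2 at 68 bp upstream, and *LNK1* and *LNK4* had no upstream summit.

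*PRR3*, the remaining member of the *PRR* family, and the 4 *ELF4*-like genes had no upstream summit, whereas *BOA*, a close relative of *LUX*, had one. In the *ZTL* family of blue light receptors, *FKF1* had an upstream summit, and *ZTL* and *LKP2* had none. *CHE* scored 26.5 at 499 bp and *TIC*, a regulator needed for normal clock function, 27.9 at 203 bp. The daylength gene *CO*, *LWD1* and *LWD2* had no summit in any window. Among the other output genes, *PIF5* scored 60.4 at 403 bp, *CDF1* 27.2 at 341 bp, *PIF4* 25.2 at 358 bp and *GRP7* 13.3 at 6 bp upstream. These scores are of upstream summits only. At *CHE* and *PIF4* a summit inside the gene scored higher than the upstream one. At the other genes of the list with summits both upstream and in the gene, the highest score was upstream.

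The wider list also had summits inside genes. Of its 30 genes, 15 had a summit in the gene, and 11 of these had one within 300 bp after the TSS, a stretch that was occupied in 6.33% of all protein-coding genes. *TIC* had 10 summits in the gene, but they were weak. All of them scored below the median of all summits (10.1), and most scored below the lower quartile (5.41). The highest upstream summit of *TIC* scored 27.9. For 6 genes (*LNK4*, *ZTL*, *JMJD5*, *COR27*, *GRP8* and *ELF4-L2*) the only summits lay in the gene or 3' of it. None of the 10 core genes had a summit in the gene, a count near the share of 13.6% over all protein-coding genes. No test of the difference between the core genes and the wider list was run.

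**Figure D4:**
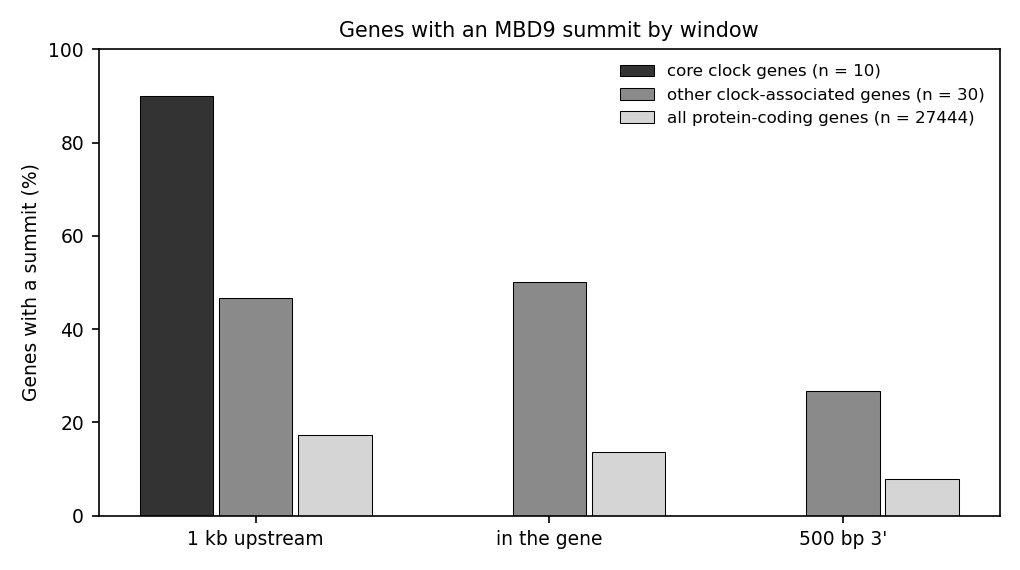
Share of genes with an MBD9 summit in each window, for the 10 core clock genes (dark), the 30 other clock-associated genes (mid grey) and all 27444 protein-coding genes (light). The core clock genes reach 90% upstream and have no bar in the other windows; the clock-associated genes stand at 46.7%, 50% and 26.7%, and all protein-coding genes at 17.3%, 13.6% and 7.76%.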

How the data were processed

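Seedlings were profiled by anti-FLAG ChIP-seq in 1 MBD9-3xFLAG library and 1 wild-type library. The authors aligned reads to TAIR10 without organelles using Bowtie, kept unique reads, removed duplicates with SAMtools and called peaks with MACS2 (version 2.1.1 in the submitters' processing notes, q value cutoff 0.01, extension size 200 bp) against wild type. The deposited values are -log10 q values at summits. Depth is unknown, so weak signal may be missed, and repeated sequence could not be scored.

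Positions were made 1-based and placed on RefSeq genes of TAIR10.1. No summit lay past a chromosome end. Windows were 1 kb upstream of the gene's 5' end, the gene, and 500 bp 3' of it. Backgrounds are shares over all protein-coding genes. Members, phases, motifs and the wider list were chosen with earlier results of these data known. From the wider list, 4 further genes whose annotation lacks the symbol (*RVE3*, *RVE5*, *RVE6* and *COR28*) were left out, with which 15 of 34 had an upstream summit. Named were all members, genes sharing their summits, and the wider-list genes with summits, with upstream values for the 12 highest. Alternatives covered windows, score thresholds, starts, phase of *PRR5* and summits per peak. Placement was tested on simulated data. Python 3.11.15, NumPy 2.4.6 and Matplotlib 3.10.9 were used. Sequences were printed for 8 of the 13 summits, and the others are not reported here.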

Additional observations from a re-analysis of the deposited data

How the results depend on the processing

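The count of clock genes with an upstream summit ranged from 7 to 9 over 8 alternatives. The share over all protein-coding genes was computed only at the main setting (17.3%) and at a score of at least 10 (10.2%). The other alternatives have no matching background share. *GI* was lost with 500 bp upstream, *PRR7* at a score of at least 10, *PRR5* with 1 summit per peak and *CCA1* from the most downstream transcript start. Of 2 alternatives for this count added after the data were seen, leaving out summits inside tRNA genes lost *PRR7*, and keeping only summits nearest to the TSS of the clock gene among all genes lost *PRR7* and *LUX*. The counts in the gene and 3' of it remained 0 under every alternative tried, and that for the 3 windows together was 8 or 9. For these windows the shares over all protein-coding genes were computed at the main setting only.

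The difference between morning-phased and evening-phased genes with an upstream summit, 1 gene, was -1 with *PRR5* counted as evening-phased, and likewise for the 3 windows together. It was 0 without *PRR5* and 0 at a score of at least 10, in both cases also for the 3 windows together. For upstream summits alone it was 2 with 500 bp upstream and 0 from the most downstream start. The number of clock gene summits with any listed motif was 11 within 50 bp, 7 within 25 bp and 13 within 100 bp. Among all upstream summits, 57.1%, 35.2% and 79.0% had one in these windows. The wider list had 13 genes with an upstream summit, in place of 14, with 500 bp upstream and at a score of at least 10. With its 4 loci of missing symbol, an alternative also added after the data were seen, it had 15. No paired analysis was possible because there was only 1 MBD9-3xFLAG library and 1 wild-type library.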
